A study of Homo sapiens with 12 samples.

Results

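Cholesterol handling was followed through 38 genes, of 63241 genes measured, in MDA-PCa-2b cells, a line established from a bone metastasis of a human prostate cancer. The 38 were chosen by name: 4 control the transcription factor SREBP2, 20 encode enzymes of cholesterol synthesis, 4 act in lipoprotein uptake, 5 in lysosomal release and transport of sterol, 1 in esterification, and 4 in efflux and its control by the liver X receptors (LXR). All 38 were found in the count tables by their symbols, and 37 passed the filter on low counts. The exception was NPC1L1, a sterol importer of the gut, which stayed at or under 0.355 counts per 1e6 counts (CPM) in every library.

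Poly-A RNA was sequenced in 12 libraries of 4 groups. KDR is labelled as a rescue of knock down 2, KD2 as DHODH knock down 2, KD1 as DHODH knock down 1, and NT carries that label alone, with 3 libraries in each group. DHODH is the mitochondrial enzyme that oxidises dihydroorotate in pyrimidine synthesis. All groups were grown in the same serum-containing medium per the labels. What NT means, which kind of construct was used, how the rescue was made and whether replicates are separate cultures are not given in the labels. P-values therefore measure the spread between these libraries, which may be technical. The growth protocol also names a sister line, MDA-PCa-2a.

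Cells keep membrane cholesterol steady through SREBP2, which is held in the endoplasmic reticulum with its escort SCAP by INSIG proteins while sterol is plentiful. When sterol falls, the complex moves to the Golgi, SREBP2 is cut, and its fragment enters the nucleus and binds sterol regulatory elements in the promoters of synthesis, uptake and INSIG1 genes. Oxysterols act the other way through LXR, which switches on sterol exporters and MYLIP, a ligase that removes lipoprotein receptors. In prostate cells, cholesterol is also the precursor of steroid hormones, and androgens are known to raise SREBP-driven lipid genes.

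The promoter sequences show where these elements stand in the promoters of members that differed between groups. The 9-base sterol regulatory element was searched as TCACNCCAC and the box bound by its partner factor NF-Y as CCAAT, each on both strands, in RefSeq promoters of 300 bases, 250 before and 50 after a start (build GRCh38.p14). The 2 motifs overlapped in 0 of the 47 member windows. Promoters were present in the RefSeq table for 33 of the 38 genes, and 9 of these had more than 1 start, in which case a match in any window was counted. The sterol element was found in the promoter of 1 of the 33 members, SREBF2, against 1.39% of all 27305 genes in the table. CCAAT was found in 24 of the 33 members (72.7%) and in 39.7% of all genes. The 5 sequences are the bases of each window that lie before the gene's start in the deposited annotation. SREBF2 was taken because it holds the sterol element. INSIG1, MSMO1, MYLIP and PMVK were chosen after their values were seen, to set 3 genes higher in KD2 beside 1 that was lower. They lie on the plus strand at chr22:41832855-41833104 (SREBF2), chr7:155297628-155297775 (INSIG1), chr4:165327419-165327666 (MSMO1) and chr6:16128836-16129085 (MYLIP), and on the minus strand at chr1:154936720-154936969 (PMVK). They are written 5′ to 3′, with the motifs in capitals.
SREBF2: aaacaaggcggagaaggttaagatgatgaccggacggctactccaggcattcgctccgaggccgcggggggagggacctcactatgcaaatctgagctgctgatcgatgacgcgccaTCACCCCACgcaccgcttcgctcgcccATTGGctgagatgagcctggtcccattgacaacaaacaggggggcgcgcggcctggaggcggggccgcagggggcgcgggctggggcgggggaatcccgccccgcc
INSIG1: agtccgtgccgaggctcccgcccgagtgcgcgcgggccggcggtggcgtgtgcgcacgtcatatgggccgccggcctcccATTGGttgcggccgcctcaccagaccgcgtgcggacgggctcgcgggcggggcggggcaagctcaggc
MSMO1: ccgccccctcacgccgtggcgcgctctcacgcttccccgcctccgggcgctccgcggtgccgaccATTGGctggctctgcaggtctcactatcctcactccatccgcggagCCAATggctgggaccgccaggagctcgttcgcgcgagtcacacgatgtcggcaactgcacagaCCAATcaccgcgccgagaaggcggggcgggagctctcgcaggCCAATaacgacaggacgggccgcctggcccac
MYLIP: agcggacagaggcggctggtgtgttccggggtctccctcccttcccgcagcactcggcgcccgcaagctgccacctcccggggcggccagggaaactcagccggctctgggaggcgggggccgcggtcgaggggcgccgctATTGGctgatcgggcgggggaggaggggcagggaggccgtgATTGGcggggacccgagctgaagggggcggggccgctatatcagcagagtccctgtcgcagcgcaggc
PMVK: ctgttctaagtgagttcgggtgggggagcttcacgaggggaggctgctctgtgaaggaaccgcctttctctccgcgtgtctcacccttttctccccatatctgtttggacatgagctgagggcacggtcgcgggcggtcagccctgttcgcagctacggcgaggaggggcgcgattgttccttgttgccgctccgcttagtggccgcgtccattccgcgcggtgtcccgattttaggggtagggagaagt

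In SREBF2 the sterol element began 133 bases before the start, on the strand of the gene, and a CCAAT box on the other strand began 106 bases before it. MSMO1 had 4 CCAAT boxes, MYLIP had 2, INSIG1 had 1 and PMVK had 0. Among members with a promoter in the table, 15 of the 17 called higher in KD2 than in NT held CCAAT (88.2%), 4 of the 7 called lower (57.1%) and 4 of the 8 not called (50%). These are descriptions of the windows: a match is not evidence of binding, and a missing match says only that these letters are not there.

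Total counts ran from 23786288 to 38240369 per library. Members took 0.304% to 0.309% of counts in KDR, 0.291% to 0.293% in KD2, 0.236% to 0.238% in KD1 and 0.238% to 0.248% in NT. DHODH itself had 18.9, 19.2 and 17.5 CPM in KDR, 11.4, 13 and 14.9 in KD2, 11.0, 10.4 and 9.63 in KD1, and 9.19, 13.4 and 8.95 in NT. Its RNA was not lower in the libraries labelled as knock downs than in NT (KD2 over NT, log2 fold change 0.31 ± 0.14 SE, adjusted p = 0.097), and it was higher in KDR than in KD2 (0.51 ± 0.14, adjusted p = 0.0064). All 9 prostate luminal markers were detected in every group, with sums of 17275 to 17694 CPM in KDR, 10639 to 10941 in KD2, 17251 to 17638 in KD1 and 17199 to 20319 in NT. The sums of the fibroblast, immune, endothelial and hepatocyte or intestinal markers stayed at or under 5.12 CPM in every library. The luminal sum was lower in KD2 alone of the 4 groups, while some differences from NT below, such as that of INSIG1, were shared by KDR and KD2. The part of the luminal sum in the KD2 results was not tested. NT replicate 2 stood apart from the other NT libraries: the biological coefficient of variation of NT was 15.8% with it and 8.56% without it, against 5.52% in KDR, 7.17% in KD2 and 6.61% in KD1. In bulk RNA, fewer cells that express a gene and less of its RNA per cell cannot be told apart.

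Genes were tested with the quasi-likelihood test of edgeR over all genes, and a call needed a Benjamini-Hochberg adjusted p under 0.05. KD2 differed from NT along most of the pathway. Of the 37 members tested, 21 were called higher and 7 lower in KD2 (75.7% called), against 35.9% of the 19373 genes tested, of which 17.8% were higher and 18.2% lower. The median log2 fold change was 0.39 over the members and -0.01 over all genes. Among the 20 synthesis enzymes, 13 were higher, 3 were lower and 4 were not called.

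KDR differed from KD2 in a smaller share of members: 6 were called higher and 11 lower (45.9%), against 32.4% of all genes, 15.3% higher and 17.1% lower. The median over the members was -0.03 and over all genes 0.02. Set directly against NT, KDR had 19 members higher and 3 lower (59.5%), against 27.5% of all genes, 13% higher and 14.5% lower. The median over the members was 0.34 in that comparison and 0.01 over all genes. KD2 set against KD1 had 20 members higher and 5 lower (67.6%), against 35.5% of all genes, 17.9% higher and 17.5% lower. These comparisons share libraries, so their counts are not independent of each other.

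KD1 was called different from NT at none of the 37 members, and at 0% of all genes, in edgeR, DESeq2 and limma-voom alike. An unadjusted p under 0.05 in edgeR was reached by 1 member, PMVK, and by 1185 of the 19373 genes tested. Uniform p-values would put 969 genes under it, and the smallest adjusted p over all genes was 0.794. The median log2 fold change of the members was -0.01. For INSIG1 the 95% interval of KD1 over NT ran from -0.24 to 0.16, and for SQLE from -0.18 to 0.22. The groups labelled as knock downs of the same gene, KD2 and KD1, therefore differed from each other by direct test at 25 members.

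**Figure D1:**
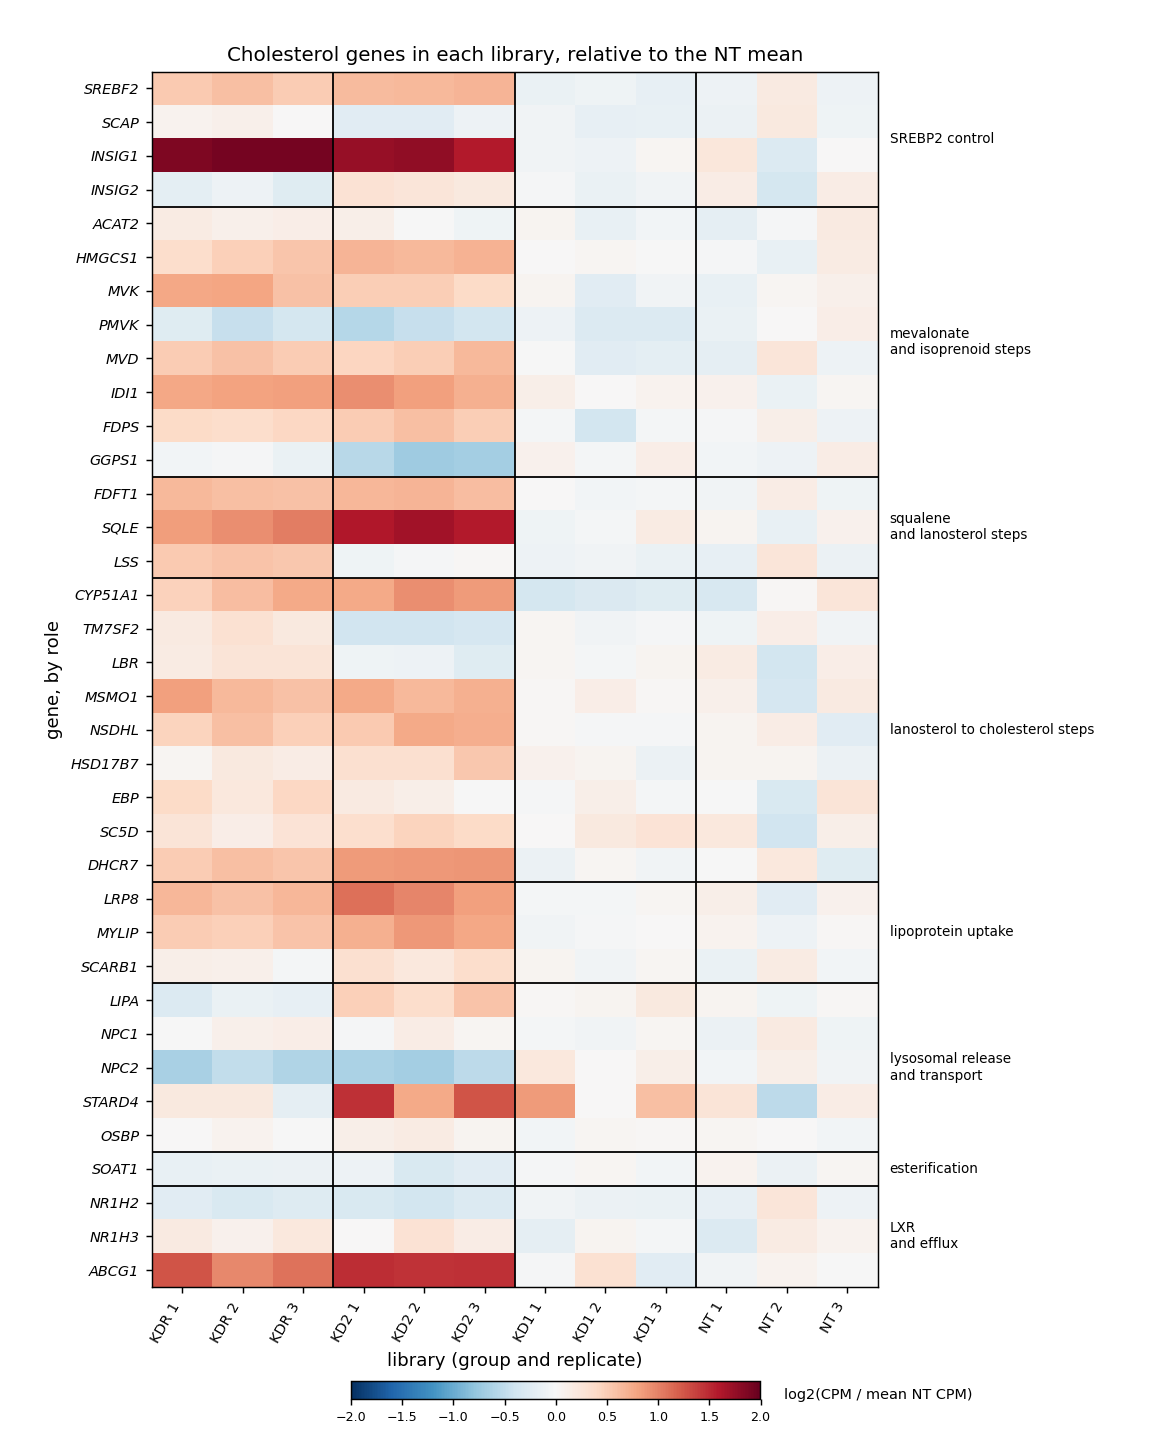
Heat map of log2(CPM in a library over the mean NT CPM), with 1 row per gene for the 36 members that reached 1 CPM in the mean of a group, in blocks by role, and 1 column per library in the order KDR, KD2, KD1, NT. The INSIG1 and ABCG1 rows are red in all KDR and KD2 libraries, SQLE is darker in KD2 than in KDR, GGPS1 is blue in KD2, and the KD1 and NT columns are pale but for STARD4, a gene of low counts, in KD1 replicates 1 and 3 and NT replicate 2.

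The SREBP2 control genes split. SREBF2, which encodes SREBP2, had 508, 538 and 505 CPM in KDR, 549.5, 555 and 571 in KD2, 325, 334 and 318 in KD1, and 333, 403 and 331 in NT. All KDR and KD2 libraries lay above all KD1 and NT libraries. SREBF2 was 1.57-fold higher in KD2 than in NT (log2 0.65 ± 0.06 SE, adjusted p = 1.4e-08) and 1.46-fold higher in KDR than in NT (adjusted p = 5.1e-07). KDR over KD2 gave -0.11, with an interval from -0.24 to 0.02 (adjusted p = 0.18). This difference passed the threshold without NT replicate 2 (adjusted p = 0.0051). It also passed by limma-voom (adjusted p = 0.006) and by edgeR on the compared groups alone (0.0044).

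INSIG1, the INSIG gene that SREBP2 itself switches on, had the largest called change of KD2 over NT among the members. It had 100.2, 103 and 104 CPM in KDR, 92.2, 93.3 and 82.6 in KD2, 26.2, 25.6 and 28.2 in KD1, and 32.1, 22.6 and 27.6 in NT. All KDR and KD2 libraries lay far above those of KD1 and NT. INSIG1 was 3.26-fold higher in KD2 than in NT (log2 1.70 ± 0.09, adjusted p = 1.4e-12), 3.73-fold higher in KDR than in NT (1.90 ± 0.09, adjusted p = 6e-13) and 3.35-fold higher in KD2 than in KD1 (adjusted p = 9.9e-13). KDR over KD2 was 0.20 (adjusted p = 0.097). That call was gained without NT replicate 1 (adjusted p = 0.047) and without NT replicate 2 (0.0083). It was also gained by limma-voom (adjusted p = 0.0042) and by edgeR on the compared groups alone (0.0014).

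INSIG2, a close relative of INSIG1 that does the same work but is not known as a strong SREBP target, went another way. It had 27.4, 29.3 and 26.7 CPM in KDR, 38.4, 37.4 and 36 in KD2, 30.9, 28.7 and 29.9 in KD1, and 34.9, 24.6 and 35 in NT. INSIG2 was lower in KDR than in KD2 (log2 -0.42 ± 0.10, adjusted p = 0.0031). KD2 over NT was 0.24 (adjusted p = 0.073), and it was called without NT replicate 1 (0.029) and without NT replicate 3 (0.027). Per length of exon, as reads per kilobase per 1e6 counts (RPKM), INSIG1 and INSIG2 stood at 28.1 and 7.04 in KDR, 24.5 and 9.44 in KD2, 7.31 and 7.56 in KD1, and 7.51 and 7.97 in NT. The pair was thus near parity in KD1 and NT, and INSIG1 was the more abundant in KDR and KD2.

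SCAP, the escort, moved little: it averaged 275 ± 8.31 CPM in KDR, 232 ± 11.2 in KD2, 242 ± 9.26 in KD1 and 264 ± 31.9 in NT (SD, n = 3 each). SCAP was higher in KDR than in KD2 (0.24 ± 0.07, adjusted p = 0.0075). It was called lower in KD2 than in NT (-0.18, adjusted p = 0.037), a call lost without NT replicate 2 (-0.08, adjusted p = 0.16) and in 9 of the 19 other settings in all, among them the fits without KD1 replicate 3, KD2 replicate 1 or 2, or any KDR replicate (adjusted p = 0.05 to 0.13).

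The mevalonate and isoprenoid steps turn acetyl-CoA into the building blocks of sterols. Of these 8 enzymes, 5 were higher in KD2 than in NT, 2 lower and 1 not called (87.5% called, against 35.9% of all genes). HMGCS1, which makes hydroxymethylglutaryl-CoA, had 49.9, 54.5 and 57.6 CPM in KDR, 63, 61.8 and 63.6 in KD2, 39.5, 40.6 and 39.2 in KD1, and 38.8, 35.3 and 43.9 in NT. The KD2 libraries were above those of every other group, and the KDR libraries above those of KD1 and NT. HMGCS1 was 1.6-fold higher in KD2 than in NT (adjusted p = 4.7e-07) and 1.37-fold higher in KDR than in NT (adjusted p = 0.00014). It was lower in KDR than in KD2 (-0.22 ± 0.08, adjusted p = 0.038).

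IDI1, the isopentenyl diphosphate isomerase, averaged 73.8 ± 1.36 CPM in KDR, 75.2 ± 5.75 in KD2, 44.5 ± 1.69 in KD1 and 42.4 ± 3.4 in NT. It was 1.77-fold higher in KD2 than in NT (adjusted p = 8.2e-09) and 1.74-fold higher in KDR than in NT (adjusted p = 2.9e-08). MVK, mevalonate kinase, was higher in KD2 than in NT (0.46 ± 0.09, adjusted p = 0.00036) and higher again in KDR than in KD2 (0.26 ± 0.09, adjusted p = 0.03). MVD, the decarboxylase that follows, averaged 59.9 ± 1.87 CPM in KDR and 59.8 ± 4.55 in KD2, against 37.7 ± 3.23 in KD1 and 41.5 ± 6.86 in NT, and was higher in KD2 (0.53, adjusted p = 0.00013) and in KDR (0.53, adjusted p = 0.00019) than in NT. FDPS, farnesyl diphosphate synthase, was 0.53 higher in KD2 (adjusted p = 0.00017) and 0.38 higher in KDR (adjusted p = 0.0062) than in NT, on the log2 scale.

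The 2 enzymes of these steps that were lower in KD2 than in NT were PMVK and GGPS1. PMVK, phosphomevalonate kinase, acts between MVK and MVD. It had 46.5, 40 and 43.4 CPM in KDR, 37.1, 40.1 and 42.8 in KD2, 51.2, 45.8 and 45.4 in KD1, and 50, 55.2 and 60.2 in NT. All KDR and KD2 libraries lay under all NT libraries. PMVK fell by 0.47 in KD2 (adjusted p = 0.00015) and by 0.35 in KDR (adjusted p = 0.0038) relative to NT, and by 0.25 in KD2 relative to KD1 (adjusted p = 0.027). The last call was lost without KD1 replicate 1 (adjusted p = 0.15), KD2 replicate 1 (0.14) or KD2 replicate 2 (0.069).

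GGPS1 leads out of the pathway to geranylgeranyl diphosphate, which anchors small GTPases to membranes. It had 31.9, 32.7 and 30.1 CPM in KDR, 22.6, 20.2 and 20.7 in KD2, 35.3, 32.4 and 36.3 in KD1, and 31.8, 31 and 36.7 in NT. KD2 stood below the other 3 groups, which overlapped. GGPS1 fell by 0.64 in KD2 relative to NT (fold 0.64, adjusted p = 4e-06) and was 1.49-fold higher in KDR than in KD2 (log2 0.58, adjusted p = 2.3e-05). KDR over NT was -0.07, with an interval from -0.25 to 0.11. ACAT2, the cytosolic thiolase of the first step, was not called in any comparison and averaged 21.6 ± 0.514 CPM in KDR, 19.8 ± 1.38 in KD2, 19.2 ± 1.36 in KD1 and 19.7 ± 2.47 in NT.

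The squalene and lanosterol steps commit the pathway to sterols. FDFT1, squalene synthase, was higher in KD2 than in NT (1.57-fold, adjusted p = 9.9e-09) and in KDR than in NT (1.53-fold, adjusted p = 6e-08). KDR over KD2 was -0.04, with an interval from -0.17 to 0.08. Its 3 libraries had 226, 219 and 216 CPM in KDR, 228, 231 and 222 in KD2, 146, 139 and 141 in KD1, and 138, 159 and 135 in NT.

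SQLE, the squalene epoxidase and a known control point of the pathway, showed 3 levels. It had 30.6, 32.5 and 34.7 CPM in KDR, 51.9, 54.8 and 51.3 in KD2, 16.1, 16.6 and 19.1 in KD1, and 17.7, 15.4 and 18.1 in NT. KD2 was highest, KDR lay between, and KD1 and NT overlapped. SQLE was 3.08-fold higher in KD2 than in NT (log2 1.62 ± 0.09, adjusted p = 2.4e-12) and 3.04-fold higher in KD2 than in KD1 (adjusted p = 2.9e-12). It was lower in KDR than in KD2 (-0.69 ± 0.09, adjusted p = 1.7e-06) and still 1.9-fold higher in KDR than in NT (adjusted p = 6.1e-08).

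LSS, which closes squalene epoxide into lanosterol, stood out for KDR. It had 198, 203 and 198 CPM in KDR, 129, 135 and 139.5 in KD2, 127, 130.5 and 125 in KD1, and 121, 162 and 126 in NT. The KDR libraries were above all others, and those of KD2 overlapped NT. KD2 over NT was -0.02, with an interval from -0.19 to 0.14 (adjusted p = 0.84). LSS was 1.48-fold higher in KDR than in KD2 (0.57 ± 0.08, adjusted p = 4.7e-06) and 1.46-fold higher in KDR than in NT (adjusted p = 1.2e-05).

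**Figure D2:**
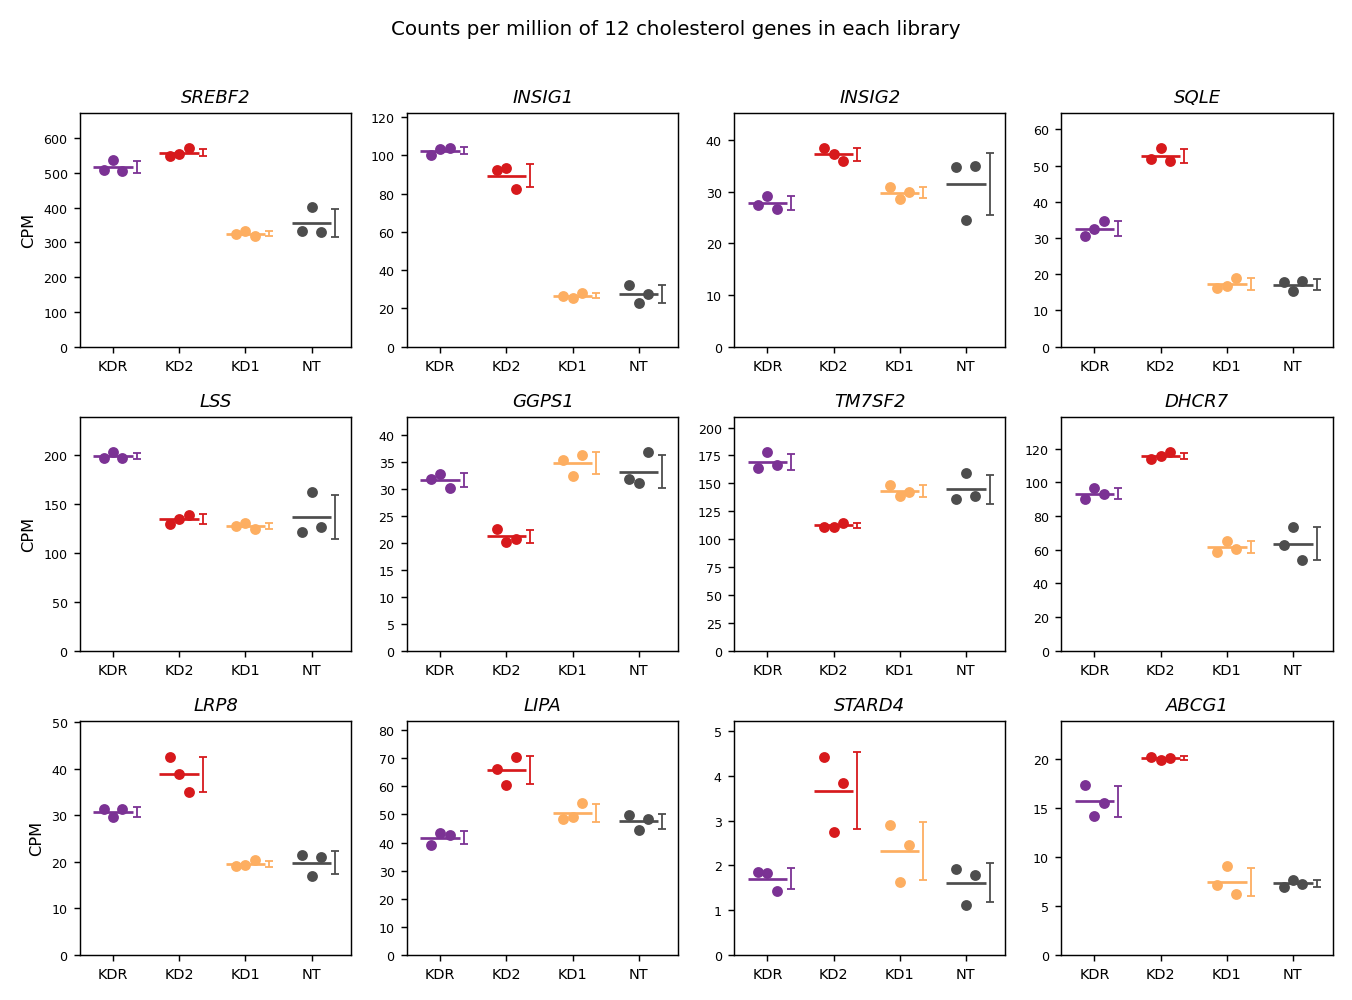
CPM of 12 members in each library (dots), with the mean (line) and SD (bar beside it) of 3 libraries, in the order KDR, KD2, KD1, NT; each panel has its own vertical axis from 0. INSIG1 reads about 100 in KDR and 90 in KD2 against under 33 in KD1 and NT, SQLE has 3 levels, LSS is highest in KDR, and GGPS1 and TM7SF2 are lowest in KD2.

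Of the 9 enzymes from lanosterol to cholesterol, 6 were higher in KD2 than in NT, 1 was lower and 2 were not called. The share called was 77.8%, against 35.9% of all genes. DHCR7, which reduces 7-dehydrocholesterol to cholesterol, had 90.2, 96.7 and 93 CPM in KDR, 114, 116 and 118 in KD2, 58.6, 65.3 and 60.6 in KD1, and 63, 73.7 and 54 in NT. Like SQLE it was highest in KD2 and intermediate in KDR, with no overlap between these and the other groups. DHCR7 was 1.82-fold higher in KD2 than in NT (adjusted p = 1.7e-08), 1.47-fold higher in KDR than in NT (adjusted p = 2e-05) and lower in KDR than in KD2 (-0.31 ± 0.08, adjusted p = 0.0047).

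MSMO1, NSDHL and HSD17B7 act together to remove the methyl groups at carbon 4. MSMO1 averaged 67.1 ± 6.01 CPM in KDR, 68.1 ± 2.88 in KD2, 43.4 ± 1.99 in KD1 and 41.7 ± 7.6 in NT, and was 1.63-fold higher in KD2 than in NT (adjusted p = 5.3e-06) and 1.61-fold in KDR (adjusted p = 1.4e-05). NSDHL averaged 28.9 ± 1.64 CPM in KDR, 32.5 ± 2.85 in KD2, 20.3 ± 0.416 in KD1 and 20.4 ± 2.71 in NT, with rises of 0.67 in KD2 (adjusted p = 1.2e-05) and 0.50 in KDR (adjusted p = 0.00051) over NT. HSD17B7 rose less: it was 0.39 higher in KD2 than in NT (adjusted p = 0.0024), it fell by 0.27 in KDR relative to KD2 (adjusted p = 0.036), and KDR over NT was 0.13 (adjusted p = 0.37). All 3 passed the test in KD2 over NT, and MSMO1 and NSDHL passed it in KDR over NT as well.

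CYP51A1, which removes the methyl group at carbon 14, averaged 11.2 ± 1.15 CPM in KDR, 13.1 ± 0.832 in KD2, 5.94 ± 0.236 in KD1 and 7.27 ± 1.41 in NT. It was 1.81-fold higher in KD2 than in NT (adjusted p = 4.1e-05) and 2.21-fold higher in KD2 than in KD1 (adjusted p = 1.1e-06). SC5D, the sterol desaturase, was 0.39 higher in KD2 than in NT (adjusted p = 0.0044), and its KDR over NT value of 0.22 was not called (adjusted p = 0.12). It was called without NT replicate 1 (0.34, adjusted p = 0.019) and with no filter on low counts (adjusted p = 0.015). SC5D was also called lower in KDR than in KD2 without NT replicate 2 (-0.17, adjusted p = 0.011). The same call came from limma-voom (adjusted p = 0.022) and from edgeR on the compared groups alone (0.0048). EBP, the isomerase, was not called in KD2 over NT (0.10, adjusted p = 0.59).

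The C14 sterol reductase step has 2 enzymes, TM7SF2 and LBR, the second of which is also a lamin receptor of the nuclear envelope. TM7SF2 had 164, 178 and 166 CPM in KDR, 111.254, 110.975 and 114.514 in KD2, 148, 138 and 142 in KD1, and 136, 159 and 138 in NT. KDR was highest and KD2 lowest, with no overlap with the other groups. TM7SF2 fell by 0.37 in KD2 relative to NT (adjusted p = 7.7e-05) and was 1.51-fold higher in KDR than in KD2 (0.59 ± 0.06, adjusted p = 1.4e-07). LBR was likewise higher in KDR than in KD2 (0.37 ± 0.10, adjusted p = 0.0042). Its KD2 over NT value of -0.14 was not called (adjusted p = 0.28), but was without NT replicate 2 (-0.29, adjusted p = 7e-05). Per length, TM7SF2 and LBR stood at 49.7 and 17 RPKM in KDR, 32.9 and 13.1 in KD2, 41.9 and 14.7 in KD1, and 42.4 and 14.5 in NT.

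Summed per length, the 20 synthesis enzymes reached 334, 332 and 329.8 RPKM in KDR, 306, 311 and 311 in KD2, 265, 254 and 256 in KD1, and 259, 271 and 272 in NT. The KDR sums were above the KD2 sums, and both were above KD1 and NT. Gene by gene, 5 of the 20 enzymes were called higher in KDR than in KD2 and 4 lower (45%, against 32.4% of all genes). Their median log2 fold change was -0.025, so the higher KDR sum was not shared by most of them. TM7SF2 weighed on it with 49.7 RPKM in KDR and 32.9 in KD2, and LSS with 27.6 and 18.6. The mevalonate and isoprenoid sum was highest in KDR, then KD2, then KD1, with no overlap among these, and NT overlapped all 3, with 109 ± 2.48 RPKM in KDR, 103 ± 1.59 in KD2, 95.1 ± 5.41 in KD1 and 103 ± 7.23 in NT (SD, n = 3 each). PMVK alone made up 43.2 RPKM of that sum in KDR, 39.9 in KD2, 47.4 in KD1 and 55 in NT. The squalene and lanosterol sum was 77.9 to 79 RPKM in KDR and 74.7 to 76.9 in KD2, against 49.3 to 50.1 in KD1 and 48.1 to 57.4 in NT, so KDR and KD2 were clear of KD1 and NT.

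**Figure D3:**
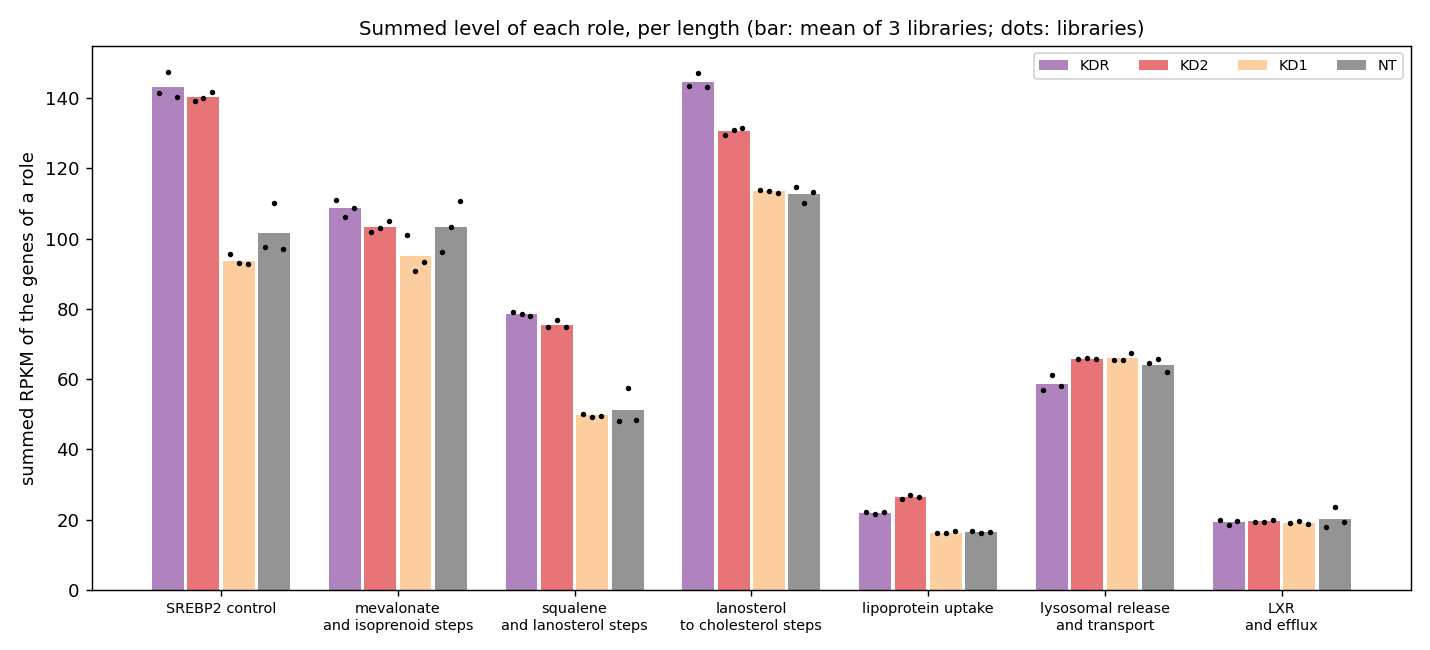
Summed RPKM of the genes of each role (bars: mean of 3 libraries; dots: libraries), in the order KDR, KD2, KD1, NT within each role. The squalene and lanosterol steps read about 78 in KDR and 75 in KD2 against about 50 in KD1 and NT. The LXR and efflux sums are near 20 in every group, and most of each is NR1H2, a receptor gene. NR1H2 took 13.3 RPKM of that sum in KDR, 12.9 in KD2, 14.9 in KD1 and 16 in NT. The exporter ABCG1 took 2.56 RPKM in KDR, 3.28 in KD2, 1.22 in KD1 and 1.19 in NT.

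All 3 genes of the uptake role that could be tested were higher in KD2 than in NT, against 17.8% of all genes. All 3 were lower in KDR than in KD2, against 17.1% of all genes. Each of these lower calls was lost when some 1 library was left out, as given below. LRP8, a lipoprotein receptor of the low-density family, had 31.3, 29.6 and 31.5 CPM in KDR, 42.6, 38.9 and 34.9 in KD2, 19.1, 19.3 and 20.3 in KD1, and 21.4, 16.9 and 21 in NT. The ranges fell in the order KD2, KDR, then KD1 and NT, which overlapped. LRP8 was 1.97-fold higher in KD2 than in NT (adjusted p = 3.7e-08), 1.56-fold higher in KDR than in NT (adjusted p = 2.9e-05) and lower in KDR than in KD2 (-0.34 ± 0.10, adjusted p = 0.0089).

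MYLIP, the LXR-driven ligase that removes lipoprotein receptors, had 48.2, 46.9 and 50 CPM in KDR, 55.3, 61.4 and 57.8 in KD2, 32.3, 33.4 and 33.9 in KD1, and 35.7, 31.5 and 34.3 in NT. It followed the same order as LRP8. MYLIP was 1.72-fold higher in KD2 than in NT (adjusted p = 1.8e-08), 1.43-fold higher in KDR than in NT (adjusted p = 1.4e-05) and lower in KDR than in KD2 (-0.27 ± 0.07, adjusted p = 0.0075). SCARB1, the receptor for high-density lipoprotein, averaged 69.2 ± 4.02 CPM in KDR, 81.4 ± 4.35 in KD2, 66.5 ± 3.26 in KD1 and 66.2 ± 7.38 in NT, with 0.30 in KD2 over NT (adjusted p = 0.0044) and -0.23 in KDR over KD2 (adjusted p = 0.025).

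Lysosomal release and transport had no common direction. LIPA, the lysosomal acid lipase that frees cholesterol from esters, had 39.3, 43.4 and 42.6 CPM in KDR, 66.4, 60.6 and 70.6 in KD2, 48.3, 49.2 and 54.2 in KD1, and 49.7, 44.6 and 48.4 in NT. KD2 was above every other group and KDR below every other group. LIPA was 1.38-fold higher in KD2 than in NT (adjusted p = 4.4e-05) and lower in KDR than in KD2 (-0.66 ± 0.08, adjusted p = 6.7e-07). KDR over NT was -0.19 (adjusted p = 0.082), and without NT replicate 2 it was -0.24 (adjusted p = 0.01).

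NPC2 hands freed cholesterol to NPC1 in the lysosome. It had 25.4, 28.3 and 26.2 CPM in KDR, 25.6, 25 and 27.6 in KD2, 46.1, 40 and 43.3 in KD1, and 38.4, 43.1 and 38 in NT. KDR and KD2 shared a range below that of KD1 and NT. NPC2 fell by 0.61 in KD2 (adjusted p = 4.4e-06) and by 0.58 in KDR (adjusted p = 1.5e-05) relative to NT. NPC1, its membrane partner, was not called in any comparison and averaged 55.3 ± 2.77 CPM in KDR, 54.4 ± 3.24 in KD2, 51.4 ± 2.16 in KD1 and 52.4 ± 6.31 in NT.

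STARD4, a soluble carrier that moves sterol between membranes, was low: 1.84, 1.84 and 1.43 CPM in KDR, 4.43, 2.74 and 3.84 in KD2, 2.9, 1.62 and 2.45 in KD1, and 1.93, 1.12 and 1.79 in NT. KD2 was above KDR and NT, and overlapped KD1. STARD4 was 2.28-fold higher in KD2 than in NT (log2 1.19, interval 0.61 to 1.77, adjusted p = 0.0017) and lower in KDR than in KD2 (-1.11, interval -1.68 to -0.53, adjusted p = 0.0035). KD2 over KD1 was 0.65 (adjusted p = 0.066), called without NT replicate 2 (adjusted p = 0.037), without KD1 replicate 1 (0.83, adjusted p = 0.047) or without KD2 replicate 2 (0.83, adjusted p = 0.036). It was also called by limma-voom (adjusted p = 0.042) and by edgeR on the compared groups alone (0.031). OSBP, which exchanges sterol at the Golgi, averaged 173 ± 5.69 CPM in KDR, 184 ± 7.73 in KD2, 171 ± 6.55 in KD1 and 170.5 ± 6.35 in NT, and was not called in any comparison.

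SOAT1, which esterifies cholesterol for storage, differed by a small amount. It had 141, 141 and 144 CPM in KDR, 144, 126 and 132 in KD2, 152, 160.4 and 149 in KD1, and 163, 144 and 159.8 in NT. The KD2 and NT ranges met at their ends. SOAT1 fell by 0.21 in KD2 relative to NT (adjusted p = 0.011), a call lost without NT replicate 1 (adjusted p = 0.051) or KD2 replicate 2 (0.089). Relative to KD1 it fell by 0.20 in KD2 (adjusted p = 0.018), which was lost without KD1 replicate 2, KD2 replicate 2 or KD2 replicate 3 (adjusted p = 0.062 to 0.12).

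Of the 4 LXR and efflux genes, 1 was higher and 1 lower in KD2 than in NT (50%, against 35.9% of all genes). ABCG1 exports cholesterol to high-density lipoprotein and is a known LXR target. It had 17.3, 14.2 and 15.5 CPM in KDR, 20.2, 19.9 and 20.1 in KD2, 7.15, 9.02 and 6.19 in KD1, and 6.96, 7.67 and 7.2 in NT. All KDR and KD2 libraries were above all KD1 and NT libraries, and KDR was below KD2. ABCG1 was 2.75-fold higher in KD2 than in NT (log2 1.46 ± 0.13, adjusted p = 5.2e-09), 2.15-fold higher in KDR than in NT (1.11 ± 0.13, adjusted p = 8e-07) and lower in KDR than in KD2 (-0.35 ± 0.12, adjusted p = 0.03).

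ABCA1, the exporter that loads free apolipoproteins and is the other well-known LXR target, was barely detected: its libraries ran from 0.258 to 0.622 CPM in KDR, 0 to 0.209 in KD2, 0.0354 to 0.873 in KD1 and 0 to 0.686 in NT. No comparison called it, and its interval for KD2 over NT, from -3.64 to 1.29, is too wide to set beside that of ABCG1. The LXR genes themselves moved little. NR1H2 (LXR beta) averaged 71.3 ± 2 CPM in KDR, 68.9 ± 2.37 in KD2, 79.4 ± 1.72 in KD1 and 85.5 ± 13.6 in NT, and fell by 0.31 in KD2 (adjusted p = 0.0046) and by 0.26 in KDR (adjusted p = 0.02) relative to NT. The KDR call was lost without NT replicate 2 (-0.13, adjusted p = 0.084), KDR replicate 2 (0.081) or KDR replicate 3 (0.053). NR1H3 (LXR alpha) was not called in any comparison and averaged 15.5 ± 0.701 CPM in KDR, 15.4 ± 1.5 in KD2, 13.4 ± 1.1 in KD1 and 13.9 ± 2.17 in NT.

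**Figure D4:**
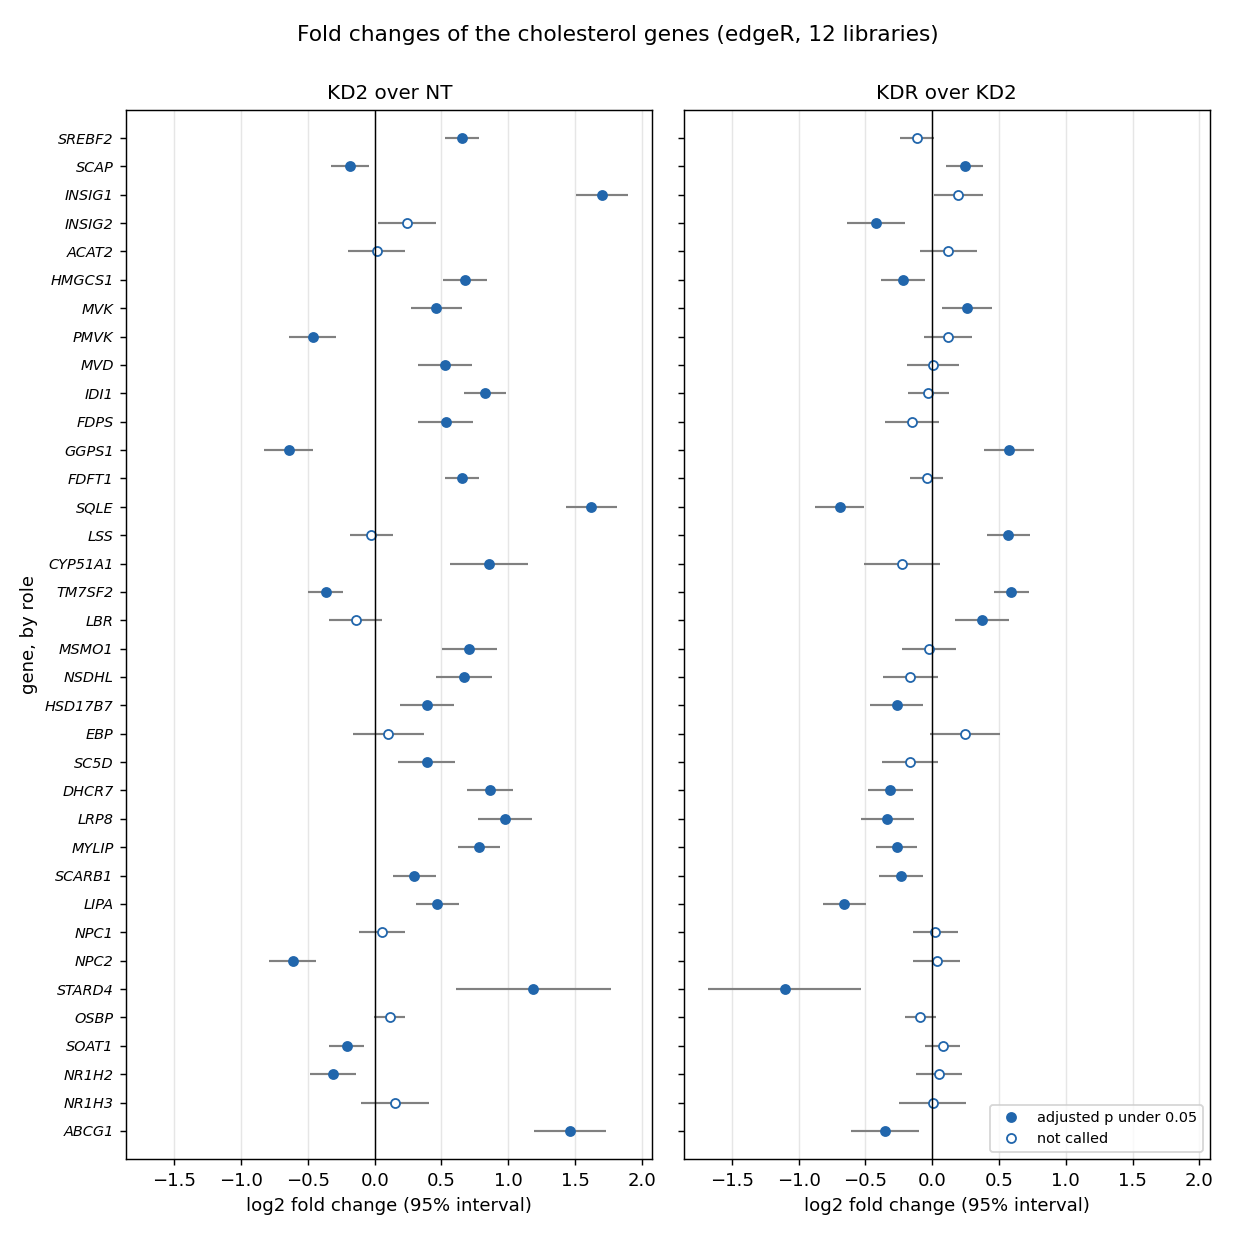
Log2 fold changes with 95% intervals for the 36 members above 1 CPM in at least 1 group, KD2 over NT on the left and KDR over KD2 on the right; filled points have an adjusted p under 0.05. INSIG1 (1.70), SQLE (1.62) and ABCG1 (1.46) lie farthest right for KD2 over NT, and STARD4 (-1.11), SQLE (-0.69) and LIPA (-0.66) farthest left for KDR over KD2; the panels share the KD2 libraries, so opposite signs are not independent.

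Some calls of KDR over KD2 lay near the threshold and were lost when 1 library was left out. LRP8 was lost without KD2 replicate 1 (-0.26, adjusted p = 0.072) and MYLIP without KD2 replicate 2 (-0.23, adjusted p = 0.053). SCARB1 was lost without KD2 replicate 1, KD2 replicate 3 or KDR replicate 3 (adjusted p = 0.076 to 0.13). HMGCS1 and MVK were each lost without any 1 of the KD2 replicates or without KDR replicate 1 or 2 (adjusted p = 0.07 to 0.19 and 0.056 to 0.12). Their log2 fold changes there were -0.23 to -0.17 for HMGCS1 and 0.22 to 0.28 for MVK. HSD17B7 was lost without KD2 replicate 3 or any KDR replicate (adjusted p = 0.051 to 0.18), and ABCG1 without any 1 KD2 replicate or KDR replicate 2 or 3 (-0.36 to -0.29, adjusted p = 0.067 to 0.14). For HMGCS1, MVK and ABCG1 the call was thus lost whichever of 5 libraries was left out. SCAP, INSIG2, GGPS1, SQLE, LSS, TM7SF2, LBR, DHCR7, LIPA and STARD4 were called in all 19 other settings.

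In KDR over NT, EBP was called at 0.35 (adjusted p = 0.045) and lost in 13 of the 19 settings, with 0.21 and an adjusted p of 0.21 without NT replicate 2. TM7SF2, at 0.23 (adjusted p = 0.0092), was lost without KDR replicate 2 (adjusted p = 0.068). LBR and SCAP were gained there, LBR without NT replicate 1 (0.32, adjusted p = 0.02) or NT replicate 3 (0.30, adjusted p = 0.036) and SCAP without NT replicate 2 (0.16, adjusted p = 0.0054). INSIG2 (-0.34, adjusted p = 0.0011) and SOAT1 (-0.19, adjusted p = 0.003) were gained without NT replicate 2. In KD2 over KD1, INSIG2 (0.32, adjusted p = 0.019) was lost without KD1 replicate 2 or 3 or KD2 replicate 1 or 2 (adjusted p = 0.052 to 0.074). LBR (-0.16), SC5D (0.22), OSBP (0.11) and NR1H2 (-0.21) were called in that comparison without NT replicate 2 (adjusted p = 0.011, 0.00098, 0.041 and 0.0012), and NR1H2 also without NT replicate 1 (0.038) or NT replicate 3 (0.046). Each of these genes was also called by edgeR on the compared groups alone (adjusted p = 0.013, 0.0012, 0.04 and 0.0016).

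Exons of 15 members overlapped those of other genes over at least 5% of their length, and reads there cannot be given to 1 gene without strand. The shares were 74.1% for CYP51A1, with AKAP9 and CYP51A1-AS1 among the partners, 41% for GGPS1 with ARID4B, 37.7% for HMGCS1, 36.4% for EBP, 22.2% for ACAT2 and 22.1% for NR1H2. FDPS has 8 named pseudogenes, IDI1 and CYP51A1 have 3 each and HSD17B7 has 2, so the values of these genes are less sure than the others.

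Around the members, further genes of sterol handling were taken from 8 lists, whose called shares are set against the 35.9% of all genes called in KD2 over NT. Of 13 genes of SREBP processing and sterol-regulated degradation, 5 were higher and 2 lower in KD2 than in NT (53.8%). In KDR over KD2, 3 were higher and 2 lower (38.5%), near the 32.4% of all genes. SREBF1, which encodes SREBP1, the fatty acid relative of SREBP2, had 594, 580.3 and 572 CPM in KDR, 449, 465 and 487 in KD2, 114, 110.4 and 112 in KD1, and 112, 132 and 121 in NT. KDR was above KD2, and both were far above KD1 and NT. SREBF1 was 3.84-fold higher in KD2 than in NT (adjusted p = 2.3e-17), 4.79-fold higher in KDR than in NT (adjusted p = 7e-18) and 1.25-fold higher in KDR than in KD2 (adjusted p = 9.6e-05). It is a known target of both LXR and the SREBPs.

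MBTPS2, the protease that makes the second cut in the SREBPs, was higher in KD2 than in NT (0.65, adjusted p = 1.5e-05) and in KDR than in NT (0.50, adjusted p = 0.00053). Of the 4 acetyl-CoA supply genes, 2 were higher in KD2 than in NT (50%, against 17.8% of all genes higher): ACLY, which makes acetyl-CoA from citrate (0.24, adjusted p = 0.0018), and ACSS2, which makes it from acetate (0.26, adjusted p = 0.0067). ACLY was also higher in KDR than in NT (0.28, adjusted p = 0.00044).

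Of 17 isoprenoid branch genes tested, 3 were higher and 3 lower in KD2 than in NT (35.3%), near the 35.9% of all genes. DOLK, which makes dolichol phosphate, fell by 0.58 in KD2 (adjusted p = 6.7e-05) and by 0.34 in KDR (adjusted p = 0.013) relative to NT. ICMT, which methylates prenylated proteins, fell by 0.38 in KD2 relative to NT (adjusted p = 3.8e-05). TRIT1, which puts an isopentenyl group on transfer RNA, was 0.36 higher in KD2 than in NT (adjusted p = 0.00077).

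The 8 accessory genes of sterol synthesis gave 2 higher and 2 lower in KD2 than in NT (50%, against 35.9% of all genes). FAXDC2, a relative of MSMO1, had 4.68, 4.8 and 3.84 CPM in KDR, 24.4, 22.9 and 26.2 in KD2, 3.26, 2.7 and 3.18 in KD1, and 3.82, 2.55 and 3.01 in NT. Every KD2 library was above all others. FAXDC2 was 7.81-fold higher in KD2 than in NT (log2 2.97 ± 0.16, adjusted p = 5.7e-13) and lower in KDR than in KD2 (-2.46 ± 0.15, adjusted p = 8.9e-12). ERG28, a scaffold of the carbon 4 enzymes in yeast, was 0.53 higher in KD2 than in NT (adjusted p = 0.00035). CYB5A, an electron donor, fell by 0.42 in KD2 relative to NT (adjusted p = 7.3e-06) and was 0.68 higher in KDR than in KD2 (adjusted p = 7.3e-09).

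Of 11 further uptake genes tested, 5 were higher and 1 lower in KD2 than in NT (54.5%, against 35.9% of all genes). In KDR over KD2, 0 were higher and 7 lower (63.6%), against 15.3% of all genes higher and 17.1% lower. LRP1, a large lipoprotein receptor, had 44.6, 42.7 and 43.6 CPM in KDR, 96, 96.5 and 99.4 in KD2, 51.8, 50.9 and 49.7 in KD1, and 44.1, 63.2 and 50.8 in NT. SORL1, a sorting receptor, had 49.3, 41.9 and 47.4 CPM in KDR, 148, 145 and 152 in KD2, 80.5, 91.9 and 84.1 in KD1, and 88, 86.9 and 88.3 in NT. Both were highest in KD2, and SORL1 was lowest in KDR. LRP1 was 1.85-fold higher in KD2 than in NT (adjusted p = 4.3e-08) and -1.16 in KDR over KD2 (adjusted p = 8.2e-10). SORL1 was 1.69-fold higher in KD2 than in NT (adjusted p = 5.4e-09), -1.68 in KDR over KD2 (adjusted p = 7.9e-15) and -0.93 in KDR over NT (adjusted p = 7e-10). SNX17, which recycles such receptors, fell by 0.31 in KD2 relative to NT (adjusted p = 0.00017).

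Among 24 further transport genes tested, 5 were higher and 6 lower in KD2 than in NT (45.8%, against 35.9% of all genes). TMEM97, a sterol-regulated protein that binds NPC1, was 2.09-fold higher in KD2 than in NT (adjusted p = 1.8e-08), 1.51-fold higher in KDR than in NT (adjusted p = 0.00012) and lower in KDR than in KD2 (-0.47, adjusted p = 0.00076). OSBP2, a relative of OSBP, fell by 1.12 in KD2 (adjusted p = 7.3e-08) and by 1.17 in KDR (adjusted p = 7.6e-08) relative to NT. LAMP2, a lysosomal membrane protein, fell by 0.50 in KD2 relative to NT (adjusted p = 1.7e-06) and was 0.49 higher in KDR than in KD2 (adjusted p = 3.1e-06).

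Of 8 ester and oxysterol genes tested, 1 was higher and 1 lower in KD2 than in NT (25%, below the 35.9% of all genes). CYP39A1, an oxysterol hydroxylase, was 0.59 higher in KD2 than in NT (adjusted p = 4.6e-06), and SULT2B1, which sulphates cholesterol, fell by 0.73 (adjusted p = 7.4e-05) and was 0.74 higher in KDR than in KD2 (adjusted p = 8e-05). Of 8 other efflux pumps and LXR targets tested, 2 were higher and 2 lower in KD2 than in NT (50%, against 35.9% of all genes). ABCA2, a pump of late endosomes, was 1.64-fold higher in KD2 than in NT (adjusted p = 4.1e-08) and 1.47-fold higher in KDR than in NT (adjusted p = 3.3e-06). SMPDL3A, an LXR target in human macrophages, was 1.89-fold higher in KD2 than in NT (adjusted p = 1.7e-08) and -1.44 in KDR over KD2 (adjusted p = 1.7e-11).

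**Figure D5:**
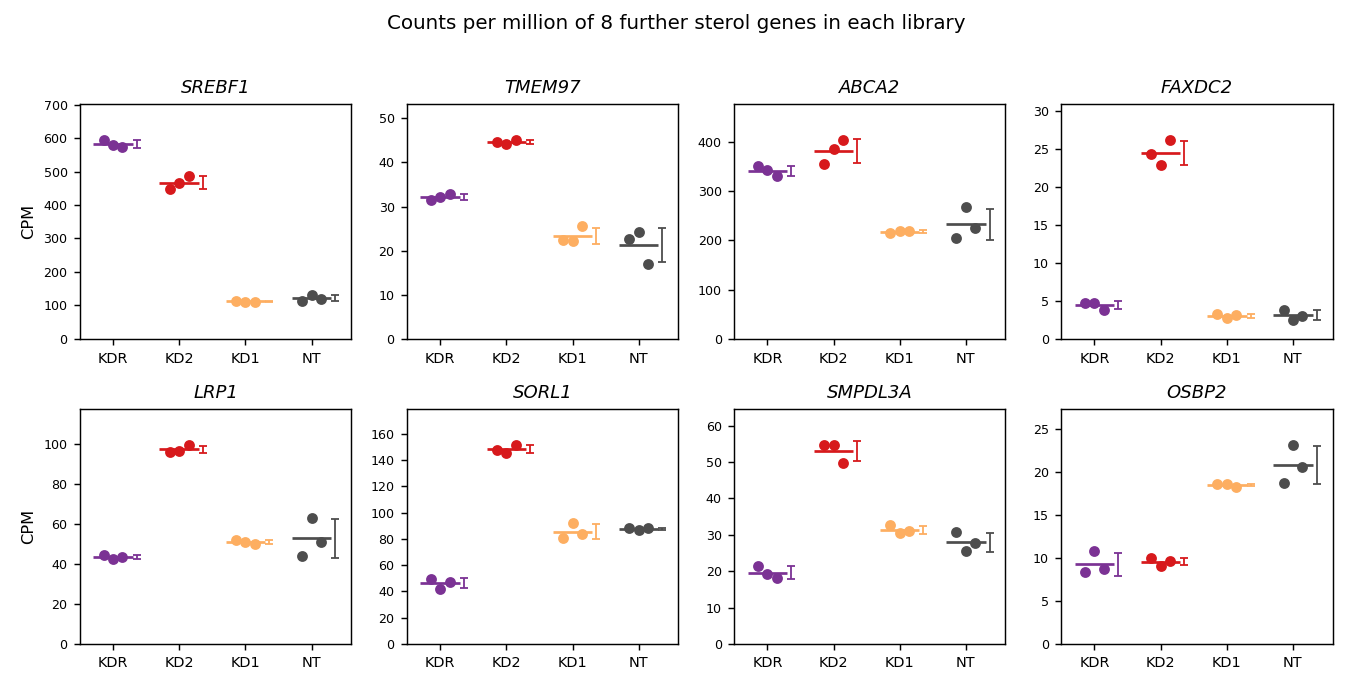
CPM of 8 further sterol genes in each library (dots), with the mean (line) and SD (bar beside it) of 3 libraries, in the order KDR, KD2, KD1, NT; each panel has its own vertical axis from 0. SREBF1 and ABCA2 are high in both KDR and KD2, FAXDC2, LRP1, SORL1 and SMPDL3A are high in KD2 alone of the 4 groups, and OSBP2 is low in KDR and KD2.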

How the data were processed

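Poly-A RNA of 12 MDA-PCa-2b libraries was measured, in 4 groups of 3 assigned by the sample titles. Per the file headers, the authors made raw counts per gene by running featureCounts 1.6.4 on exons, summed per gene of Ensembl release 111 (GRCh38). The command line sets no strand, pair or multi-mapping option. The submitters' processing notes also name FastQC, cutadapt and HISAT2, with versions not given in the sources used here. The deposited exon length of each gene served for RPKM.

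From these counts, 19373 of 63241 genes passed filterByExpr by group, were scaled by TMM and were tested with edgeR 4.0.16 in R 4.3.3 by 1 quasi-likelihood model over all 12 libraries, with Benjamini-Hochberg adjustment over all genes tested and a call at an adjusted p under 0.05. Values are TMM-scaled CPM with the SD over 3 libraries. The code was checked on simulated data with known changes. As alternatives, edgeR was run with DESeq2 size factors, without a filter, with at least 1 CPM in 3 libraries, on the compared groups alone, with a replicate block and without each library in turn, beside DESeq2 1.42.0 and limma-voom (limma 3.58.1) with library weights.

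The text names DHODH, the 38 members and up to 3 genes of each further list by adjusted p in KD2 over NT. The members, lists and rules were chosen with earlier results of these data known. Some genes of the pathway are not reported here. Total counts limit the precision of low genes such as ABCA1 and STARD4. The table of promoters is RefSeq's.

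Because no pair option was set, each end of a read pair was counted on its own. Reads that map to many places, or to exons of more than 1 gene, are not counted by default. No pairing by replicate number was seen over 11201 genes of at least 5 CPM. Residuals of 1 of the 18 same-numbered pairs of libraries correlated above 0.1, in a range of -0.16 to 0.25. Among pairs with other numbers it was 5 of 36, in a range of -0.29 to 0.25. With 3 libraries in each group, this check cannot exclude a pairing.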

Additional observations from a re-analysis of the deposited data

How the results depend on the processing

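Counts of members called higher stayed within 1.5 times of the reported value in all 19 other settings of every comparison. No member changed direction between the reported fit and another setting where either of them called it. Changes of direction among values that neither called were not counted. The further genes of sterol handling were not followed through the settings. Members called lower in KDR than in KD2 numbered 11, and 7 to 13 when 1 library was left out, with 7 without KD2 replicate 1 and 7 without KD2 replicate 3. Members lower in KDR than in NT numbered 3, against 5 by limma-voom and 2 to 5 when 1 library was left out, with 5 without NT replicate 2. Members lower in KD2 than in KD1 numbered 5, and 3 to 7 when 1 library was left out, with 3 without KD2 replicate 2. For KD1 over NT, 0 genes were called, and 23 with no filter on low counts. The causes were not tested.

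Of the calls reported, those of 26 of 28 members in KD2 over NT, 10 of 17 in KDR over KD2, 19 of 22 in KDR over NT and 22 of 25 in KD2 over KD1 held in all settings. With the replicate block, 21 members were higher and 7 lower in KD2 than in NT, 6 higher and 11 lower in KDR than in KD2, and 21 higher and 5 lower in KD2 than in KD1, where STARD4 was gained (adjusted p = 0.046). Scaling by DESeq2 size factors moved no member by more than 0.0053 on the log2 scale. Precision is limited by the 3 libraries of a group, the wide spread of NT, and low counts of ABCA1, STARD4 and NPC1L1.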
